A study of Mus musculus with 3 samples.

Results

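Natural killer (NK) cells of the mouse pancreas were described in droplet single-cell RNA sequencing of live CD45+ cells, which comprised a PBS library, a library taken 3 days after WGP (3-day WGP) and a library taken 7 days after WGP (7-day WGP). WGP is a particulate β-glucan made from the cell wall of the yeast Saccharomyces cerevisiae, and both WGP and PBS were injected into the peritoneal cavity of wild-type C57BL/6 mice of both sexes. The labels give neither the sex or age of the mice, nor how many went into a library, nor when PBS mice were taken. With 1 library per group no difference between treatments had a replicate check and none was tested, so that treatment, mice and library cannot be told apart.

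Members were chosen by their UMI counts (unique molecular identifiers, each standing for 1 captured transcript). A cell was counted as an NK cell when it held at least 3 UMIs of Ncr1, Klrb1c and Klre1 together, and none of Cd3e, Cd3d, Cd3g, Cd79a and Csf1r. These 3 gate genes encode the surface receptors NKp46, NK1.1 and the NKG2-like receptor Klre1, and the excluded genes mark T cells, B cells and macrophages. The rule found 764 NK cells among 14302 cells, and since the gate was set on measured UMIs, the levels of the gate genes are a description and not a result. Values are given in the order PBS, 3-day WGP, 7-day WGP throughout. The median member held 9, 9 and 13 gate UMIs. Just inside the gate, 7, 17 and 7 members held exactly 3 gate UMIs, and just outside it 5, 5 and 8 cells held 2 and were otherwise within the rule. Of 1365 cells with at least 3 gate UMIs, 533 were left out for a Cd3 UMI, 167 for Cd79a and 65 for Csf1r, and a cell could be left out for more than 1 of these.

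NK cells are innate lymphocytes that kill stressed, infected or transformed cells without a rearranged antigen receptor. Their granules carry perforin, which opens the target membrane, and granzymes, proteases that enter through it, and they release interferon-γ and chemokines that act on macrophages and dendritic cells. Whether a cell is killed is set by the balance of activating receptors, such as NKp46 and NKG2D, against inhibitory receptors that read major histocompatibility complex (MHC) class I, among them members of the Ly49 family in mice.

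The label NK cell was checked against markers outside the gate. Gzma, which encodes granzyme A, stood at 5542, 5340 and 6867 CPM, where CPM are UMIs summed over the NK cells of a library and scaled to the same total in each. Prf1, which encodes perforin, stood at 625, 653 and 812 CPM. After each cell was thinned to 1000 UMIs, 67.6% of PBS members, 76.9% of 3-day members and 88.5% of 7-day members held a Gzma UMI, against 0%, 0.204% and 0.385% of B cells, a type that should lack it. Without thinning the Gzma shares were 75.2%, 86.4% and 93.5%. NK cells had a median of 3715, 3577.5 and 5785 UMIs against 4110, 5481 and 5229 in those B cells.

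Facts of the whole series that bear on these cells are few. The libraries held 52464690, 56849043 and 48219246 UMIs, and 486301, 1604397 and 2151081 of them were in NK cells. The PBS values therefore rest on the fewest molecules. Free RNA, estimated from acinar enzyme transcripts that leak from pancreas cells, made up about 0.759%, 2.12% and 0.954% of NK UMIs. This rests on acinar genes alone, and at 3 days it was too high for several lists given below. Between 1 and 9 cell barcodes were shared by each pair of libraries, and only 1 of the 15 shared barcodes belonged to an NK cell. Every interval in brackets is a 95% interval that covers counting error only, not differences between cells, mice or libraries.

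NK cells made up a larger share of CD45+ cells in both WGP libraries than in PBS. They were 105 of 5249 cells in PBS, or 2.00% (exact binomial interval 1.64 to 2.42). In 3-day WGP they were 338 of 4879 cells, 6.93% (6.23 to 7.68), and in 7-day WGP 321 of 4174 cells, 7.69% (6.90 to 8.54). The intervals of both WGP libraries lay wholly above that of PBS. The log2 ratio to PBS was 1.79 (1.48 to 2.10) at 3 days and 1.94 (1.63 to 2.26) at 7 days, and the 2 WGP libraries differed by a log2 ratio of 0.15 (-0.06 to 0.36), an interval that includes 0. A share of sorted cells does not show whether NK cells were more numerous or other cells fewer. B cells, for instance, numbered 1781, 981 and 520.

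**Figure D1:**
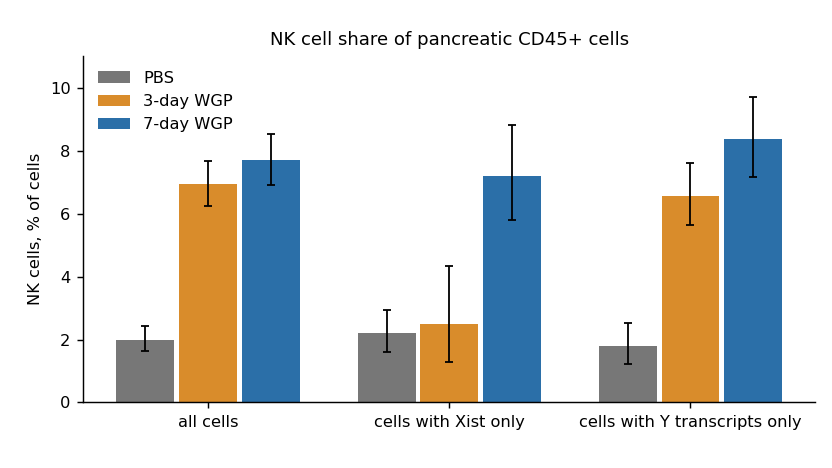
Share of cells that met the NK rule (y axis, % of cells) in PBS, 3-day WGP and 7-day WGP, over all cells and within cells that held Xist or Y-linked transcripts alone. Bars are shares of 1 library and error bars are exact 95% binomial intervals; the 3-day bar stands near PBS at 2.51% in Xist cells but at 6.57% in Y cells.

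Because the libraries mixed cells of both sexes, the share was also taken within cells that held Xist, the transcript that silences an X chromosome in females, and within cells that held Y-linked transcripts. Among Y cells, NK cells were 31 of 1736 in PBS, 165 of 2510 in 3-day WGP and 156 of 1865 in 7-day WGP, or 1.79%, 6.57% and 8.36%. Among Xist cells they were 45 of 2039, 12 of 479 and 87 of 1208, or 2.21%, 2.51% and 7.2%. Thus the higher share at 7 days was present in cells of both kinds, with log2 ratios of 1.71 (1.2 to 2.22) and 2.23 (1.68 to 2.78) in Xist and Y cells. At 3 days it was present in Y cells, at 1.88 (1.33 to 2.43), whereas in Xist cells the ratio was 0.18 (-0.72 to 1.09) on 12 members. That the 3-day ratio differs between Xist and Y cells was not tested.

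Within NK cells, few genes differed in level by 2-fold or more. A gene was examined when its mean over the libraries was at least 100 CPM, which left 1459 genes, and ratios were taken after 10 CPM was added to both values. At 3 days 13 genes were at least 2-fold higher than in PBS (0.891% of those examined) and 4 were at least 2-fold lower (0.274%). At 7 days 16 were higher (1.1%) and 3 lower (0.206%). Between the WGP libraries 4 genes were higher at 7 days than at 3 days (0.274%) and 5 were lower (0.343%). The median log2 ratio to PBS over all genes examined was 0.02 at both times. Immunoglobulin genes, genes of other cell lineages and sex-linked genes accounted for part of these counts, and the rest is described by role.

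The killing machinery was at a similar level in the 3 libraries. Of 20 genes of cytotoxic granules and death ligands, 12 were examined, none passed 2-fold at 3 days and only Serpinb9 did at 7 days. Serpinb9, an inhibitor that protects a killer cell from its own granzyme B, stood at 267, 421 and 548 CPM in PBS, 3-day and 7-day WGP, a log2 ratio of 1.01 (0.75 to 1.27) at 7 days. Gzmb, which encodes granzyme B, stood at 397, 395 and 528 CPM, and its ratio was -0.01 (-0.23 to 0.23) at 3 days and 0.40 (0.19 to 0.62) at 7 days. Gzma had ratios of -0.05 (-0.12 to 0.01) and 0.31 (0.25 to 0.37), and Prf1 of 0.06 (-0.12 to 0.25) and 0.37 (0.20 to 0.55). All 3 were thus close to PBS at 3 days and slightly above it at 7 days. The median of the list was 0.08 at 3 days and 0.25 at 7 days, beside 0.02 for all genes.

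Gzmc, a granzyme of strongly activated killer cells, lay below the level needed to be examined but differed more. It held 1, 8 and 77 UMIs, or 2.06, 4.99 and 35.8 CPM. At 7 days 21 of 321 members held a Gzmc UMI and the 5 highest members held 71.4% of them, so that this level came from few cells. Ly6a, which encodes the interferon-inducible surface protein Sca-1, showed a like distribution, with 11, 60 and 325 UMIs, or 22.6, 37.4 and 151 CPM. It was detected in 6 of 105, 16 of 338 and 41 of 321 members, and in thinned cells in 2.86%, 2.07% and 5.3% of them, far below the 45.3%, 45% and 50.2% of B cells, which express it.

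**Figure D2:**
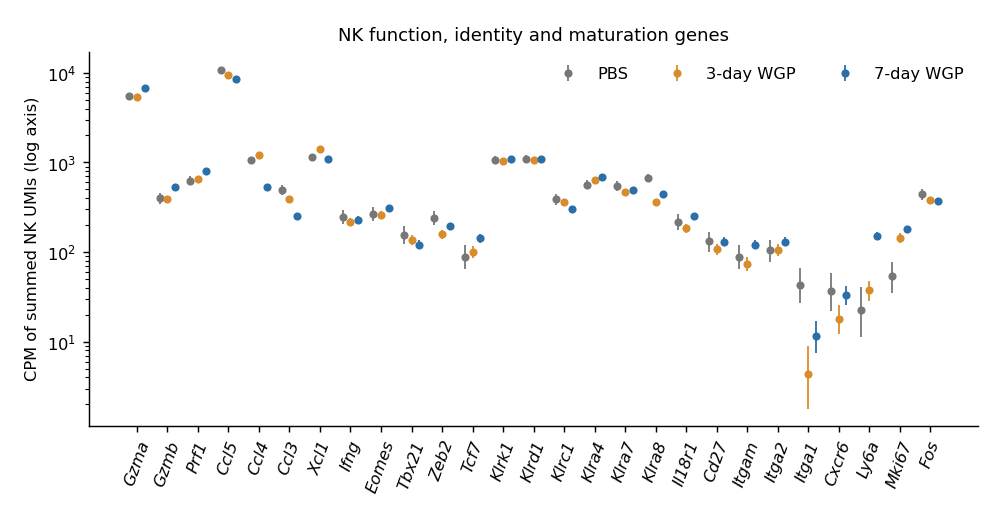
Level of NK effector, receptor, transcription factor and maturation genes (y axis, CPM of UMIs summed over the NK cells of a library, log axis) in PBS, 3-day WGP and 7-day WGP. Points are 1 library each and error bars are exact 95% Poisson intervals; Ccl3 and Ccl4 were lowest and Ly6a highest in 7-day WGP, while Klrk1 and Klrd1 had overlapping intervals in the 3 libraries.

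Of the chemokines, Ccl4 and Ccl3 were lower in the 7-day library, where Xcl1 was near PBS over all members. None was at least 2-fold different from PBS over all members. Ccl4, which encodes a chemokine that attracts leukocytes, stood at 1053, 1209 and 535 CPM. Its log2 ratio to PBS was 0.20 (0.06 to 0.34) at 3 days and -0.96 (-1.11 to -0.81) at 7 days. Ccl3, a closely related chemokine, stood at 489, 391 and 252 CPM, and its 7-day ratio was -0.93 (-1.14 to -0.71). In PBS Ccl4 was detected in 47 and Ccl3 in 44 of 105 members, but their UMIs were concentrated. The 5 highest PBS members held 70.1% of Ccl4 and 54.6% of Ccl3 UMIs. The 7-day ratio of Ccl3 was -0.02 in Xist and -2.78 in Y members, and that of Ccl4 was -0.59 and -1.78. Ccl5, a chemokine detected in 98.1% of thinned PBS members and in 0.281% of PBS B cells, stood at 10746, 9464 and 8452 CPM, a 7-day ratio of -0.35 (-0.39 to -0.30). Xcl1, a chemokine that attracts cross-presenting dendritic cells, stood at 1145, 1421 and 1088 CPM. Its ratio was 0.31 (0.18 to 0.44) at 3 days and -0.07 (-0.21 to 0.06) at 7 days. Ifng, which encodes interferon-γ, stood at 247, 217 and 231 CPM, with intervals that included 0 at both times in all members together. Csf2, which encodes GM-CSF, held 4, 12 and 44 UMIs.

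Antigen presentation by MHC class I was described as a list of 14 genes, because NK cells both read and carry these molecules. All 13 genes examined had a 7-day ratio above 0, and none was at least 2-fold higher. Their median was 0.37 at 7 days and 0.12 at 3 days, where 11 of 13 were above 0. For comparison, 791 of all 1459 genes were above 0 at 3 days and 774 at 7 days. B2m, the invariant light chain of class I, stood at 2102, 2213 and 2711 CPM, a 7-day ratio of 0.37 (0.27 to 0.46). Tap1, a subunit of the peptide transporter, stood at 101, 111 and 171 CPM, a ratio of 0.71 (0.31 to 1.12). The immunoproteasome subunit Psmb10 stood at 197, 288 and 299 CPM, a ratio of 0.57 (0.28 to 0.88). The list had 7-day medians of 0.28 in CD8 T cells and 0.26 in B cells of the same libraries, and of 0.33 in Xist and 0.34 in Y members.

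Among the transcription factors, Irf8 differed most. It encodes a factor of the interferon regulatory family needed for the NK cell response to viruses in mice, and lies on chromosome 8 at 120736358 to 120756694 (GRCm38). Its level was 323, 543 and 861 CPM, so that the libraries were ordered with no overlap of their counting intervals. The log2 ratio was 0.73 (0.49 to 0.98) at 3 days and 1.39 (1.16 to 1.62) at 7 days. Thinned to 1000 UMIs, 30.5%, 34.0% and 51.7% of members held an Irf8 UMI, against 23.1%, 22.8% and 26.9% of B cells, which express it. Within Xist members the 7-day ratio was 1.30 and within Y members 1.38. Irf8 also had a 7-day ratio of 1.17 in CD8 T cells and 0.23 in B cells.

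Interferon-stimulated genes were mostly of low level in NK cells, and only 3 of the 26 listed were examined. At 3 days 0 of the 3 had a ratio above 0, with a median of -0.46. All 3 were above 0 at 7 days, with a median of 0.60, beside 0.61 in CD8 T cells and 0.81 in B cells. Over all genes 791 of 1459 were above 0 at 3 days and 774 at 7 days. The whole list summed to 1121, 850 and 1507 CPM. Irf1, a transcription factor induced by interferon-γ, stood at 150, 107 and 204 CPM and Gbp7, a guanylate-binding protein, at 119, 90.4 and 185 CPM, both lowest at 3 days and highest at 7 days. Their 7-day ratios were 0.42 (0.08 to 0.77) and 0.60 (0.23 to 0.98). Among type I interferon targets of lower level, Irf7 stood at 69.9, 44.9 and 32.5 CPM and Rtp4 at 45.2, 21.8 and 23.2 CPM. Neither was higher in the WGP libraries, whereas Isg15 stood at 20.6, 26.8 and 36.3 CPM, a 7-day ratio of 0.60 (-0.10 to 1.27).

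Short stretches of 4 promoters are shown to give the sequence context of Irf8 and of the 3 class I genes that held a searched motif, while most class I genes held neither motif. The gamma-activated site was searched as TTCNNNGAA, which reads the same on both strands, and the core of the interferon-stimulated response element as a pair of GAAA separated by any 2 bases, on either strand, from 250 bases before to 50 after each RefSeq gene start (GRCm38.p6). Capitals mark the match, and all stretches are given 5′ to 3′ on the strand of the gene, so that H2-T23, whose match is on the opposite strand, reads as a pair of TTTC.
Irf8: caaaagtgatTTCTCGGAAagagagcgctt
Psmb8: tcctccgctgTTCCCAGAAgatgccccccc
B2m: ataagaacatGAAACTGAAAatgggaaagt
H2-T23: atcctactgcTTTCTCTTTCataaagacac
The Irf8 stretch lies at chr8:120736177-120736206 on the plus strand, with a second match 153 bases before the start. That of Psmb8 lies at chr17:34198088-34198117 (plus), that of B2m at chr2:122147538-122147567 (plus) and that of H2-T23 at chr17:36032806-36032835 (minus). The gamma-activated site was held by 9.55% of 27025 genes with a promoter and by 1 of 12 class I genes, and the response element core by 3.99% and by 2 of 12. A match is a description of the letters and not evidence of binding. The 7-day ratios of the matching class I genes were 0.37 for B2m, 0.23 for Psmb8 and 0.02 for H2-T23.

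Other factors of NK identity differed by less than 2-fold. Eomes, which with Tbx21 sets up the NK programme, stood at 267, 262 and 311 CPM, with ratios of -0.03 (-0.30 to 0.26) and 0.21 (-0.05 to 0.48). Tbx21, which encodes T-bet, stood at 156, 137 and 121 CPM, with intervals that included 0 at both times. Zeb2, a factor of terminal maturation, stood at 243, 157 and 193 CPM, a 3-day ratio of -0.60 (-0.90 to -0.29), and Tcf7, a factor of early lymphocytes, at 88.4, 101 and 142 CPM, a 7-day ratio of 0.63 (0.21 to 1.07). Of 11 transcription factors examined, Irf8 alone was at least 2-fold different at 7 days and none at 3 days.

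Receptors for targets differed by less than 2-fold over all members of a library. Klrk1, which encodes the activating receptor NKG2D, stood at 1078, 1030 and 1086 CPM, and Klrd1, the CD94 subunit shared by NKG2 receptors, at 1104, 1075 and 1085 CPM. Klrc1, the inhibitory NKG2A, stood at 387, 361 and 301 CPM, a 7-day ratio of -0.35 (-0.58 to -0.12), with -0.30 in Xist and -1.03 in Y members. Of 10 activating receptors and adaptors and 5 inhibitory receptors examined, none was at least 2-fold different at either time. In the Ly49 family, whose near-identical members may share reads, Klra4 stood at 565, 631 and 690 CPM, Klra7 at 547, 466 and 490 CPM and Klra8 at 668, 360 and 445 CPM. Klra8, the Ly49H receptor of viral glycoprotein, had ratios of -0.87 (-1.07 to -0.68) and -0.58 (-0.76 to -0.39), while its 7-day ratio was -0.72 in Xist and -0.02 in Y members. Klra4 had ratios of 0.23 and 0.14 in Xist members and of 2.96 (1.95 to 4.10) and 3.20 (2.18 to 4.33) in Y members, of which PBS held 31. That the ratios differ between Xist and Y members was not tested.

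Genes of a list of cytokine receptors and their signalling, which does not hold Il7r, were mostly higher at 7 days. Of 9 examined, 8 had a ratio above 0, with a median of 0.31 beside 0.02 at 3 days, and none was at least 2-fold higher. Over all genes 774 of 1459 were above 0 at 7 days. The list had 7-day medians of 0.32 in CD8 T cells, 0.65 in ILC2 and 0.11 in B cells. Il7r, described below, was lower at both times. Ifngr1, a chain of the interferon-γ receptor, stood at 553, 587 and 926 CPM, a ratio of 0.73 (0.55 to 0.92). Il2rg, the common γ chain through which interleukin-15 acts, stood at 241, 262 and 382 CPM, a ratio of 0.65 (0.38 to 0.93). Il18r1, part of the interleukin-18 receptor, stood at 218, 184 and 251 CPM. Il2ra, the high-affinity interleukin-2 receptor chain, held 1, 22 and 47 UMIs and Il12rb2, of the interleukin-12 receptor, stood at 41.1, 43.0 and 76.2 CPM.

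Several genes of survival and signalling were at least 2-fold higher at 7 days and were spread over many members. Bcl2l11, which encodes the pro-apoptotic protein Bim, stood at 94.6, 109 and 258 CPM, with ratios of 0.19 (-0.24 to 0.63) and 1.36 (0.96 to 1.77). Pim2, a kinase that promotes survival, stood at 43.2, 110 and 152 CPM, with ratios of 1.18 (0.63 to 1.75) and 1.61 (1.07 to 2.17). Both were present in 150 or more of 321 members at 7 days, Bcl2l11 in 210 and Pim2 in 150. In thinned cells Bcl2l11 was found in 12.4%, 7.99% and 21.5% of NK cells and in 2.47%, 3.47% and 2.89% of B cells. Traf1, an adaptor of tumour necrosis factor receptors, stood at 154, 216 and 342 CPM, a 7-day ratio of 1.10 (0.78 to 1.44). Gpr171, a G protein-coupled receptor, stood at 74.0, 131 and 234 CPM, and Mxd1, an antagonist of Myc, at 101, 180 and 247 CPM. Each of these 5 genes had a 7-day ratio above 0.75 in both Xist and Y members, although the ratio of Mxd1 was 0.48 in thinned cells. In CD8 T cells the 7-day ratios were 0.23 for Bcl2l11, 0.61 for Pim2, 0.66 for Traf1, 0.58 for Gpr171 and 1.13 for Mxd1. In B cells they were, in the same order, 0.64, -0.14, -0.15, 0.39 and 0.40. In ILC2, with 10 cells at 7 days, they were 1.74, -2.15, 0.20, -0.54 and 1.90.

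**Figure D3:**
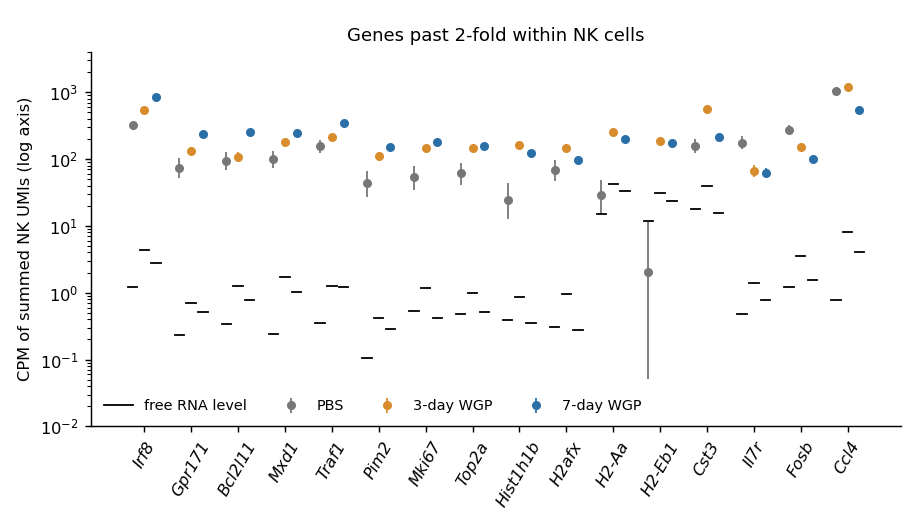
Level in NK cells (y axis, CPM of summed UMIs, log axis) of 16 genes at least 2-fold different in a pair of libraries. Points are 1 library each with exact 95% Poisson intervals, and black dashes give the free RNA level estimated from acinar genes. Irf8 stood at 323, 543 and 861 CPM, far above its dashes, whereas H2-Eb1 in PBS, at 2.06 CPM, lies below its dash.

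Lists of metabolism and migration stood close to PBS. The median ratio was 0.25 and 0.16 at 3 and 7 days for 10 glycolysis genes, 0.10 and 0.14 for 19 nuclear genes of oxidative phosphorylation and 0.05 and 0.07 for 15 genes of migration and adhesion. Of these, 1 migration gene at 7 days was at least 2-fold different.

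Cell division genes were higher in both WGP libraries in summed counts but came from few cells. Mki67, which marks dividing cells, stood at 53.5, 144 and 179 CPM, with ratios of 1.28 (0.77 to 1.81) and 1.57 (1.08 to 2.09). It was detected in 5 of 105, 33 of 338 and 43 of 321 members, and in thinned cells in 1.90%, 2.96% and 2.80%, beside 1.12%, 5.30% and 1.35% of B cells. Top2a, a topoisomerase of the same phase, stood at 61.7, 149 and 157 CPM and Hist1h1b, a linker histone made while DNA is copied, at 24.7, 161 and 123 CPM. When every cell counted equally, by thinning, the 3-day ratios of Mki67 and Top2a were -0.44 and -0.66. Of 7 cell cycle genes examined, 2 were at least 2-fold higher at each time, with medians of 0.53 and 0.34. At 7 days the list stood at 1.08 in Xist members and at -0.41 in Y members.

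Genes of MHC class II, which antigen-presenting cells carry, were also higher in both WGP libraries and were concentrated in a handful of members. Cd74, H2-Aa, H2-Ab1 and H2-Eb1 together held 30, 1642 and 1923 UMIs. No PBS member held 10 or more, whereas 11 members at 3 days held 93.1% of the UMIs and 6 members at 7 days held 86.3%. Among these members 4 and 2 were among the cells with the highest doublet scores, and their median UMIs were 8884 and 9494.5. Without them the summed class II level was 61.7, 74.8 and 127 CPM, beside free RNA estimates of 58.4, 164 and 116 CPM. The 3-day estimate exceeds the measured level and is therefore too high there. Cst3, an inhibitor of cysteine proteases abundant in myeloid cells, stood at 158, 560 and 216 CPM, and its 3-day ratio was 1.76 with all members and 0.07 without the class II members. Similar cells were present in the other gates, where 1, 9 and 2 CD8 T cells and 8, 3 and 3 ILC2 held 10 or more class II UMIs.

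Genes of other lineages were read over whole lists. Of 13 T cell markers 8, 7 and 7 were at 0 in PBS, 3-day and 7-day WGP, with Cd3e, Cd3d and Cd3g at 0 by the rule, and the list summed to 753, 760 and 734 CPM. Endothelial and fibroblast markers summed to 125, 40.5 and 70.7 CPM, of which free RNA would carry 2.46, 6.63 and 2.68 CPM. Mast cell and basophil markers summed to 0, 0.623 and 1.39 CPM and ILC3 markers to 4.11, 1.25 and 1.86 CPM. B cell markers summed to 319, 1174 and 207 CPM and plasma cell markers to 88.4, 431 and 94.4 CPM. Their free RNA estimates were 116, 543 and 87.5 CPM and 42.5, 161 and 28.1 CPM. The 3-day library thus held the most B-lineage RNA in its NK cells. Dendritic cell markers, which include class II genes, summed to 115, 673 and 633 CPM. Monocyte and macrophage markers summed to 111, 132 and 232 CPM, beside free RNA estimates of 93.7, 307 and 150 CPM. At 3 days the estimate thus exceeded the measured level. The same held at 3 days for erythroid markers (17.5 CPM measured, 155 estimated) and neutrophil markers (11.2 and 49.3). For these lists the 3-day estimate is too high, while the B cell and plasma cell lists lay above theirs. Igkc was present in 291 of the 338 members at 3 days, but the 5 highest held 78.6% of those UMIs. Their part in the results above was not tested beyond these values.

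Il7r, which encodes the interleukin-7 receptor and in this setting marks innate lymphoid cells other than mature NK cells, was at least 2-fold lower at both times. It stood at 177, 66.7 and 61.4 CPM, with ratios of -1.28 (-1.66 to -0.90) and -1.39 (-1.75 to -1.02). In PBS 21 of 105 members held it, at 3 days 29 of 338 and at 7 days 37 of 321, and in thinned cells 13.3%, 4.14% and 4.67%, beside 1.35%, 0.408% and 0.192% of B cells. Its direction differed by the kind of cell, with ratios of 2.07 and 0.54 in Xist members and -2.88 and -2.71 in Y members. Itga1, which encodes CD49a, stood at 43.2, 4.36 and 11.6 CPM, and Tmem176b, another marker of type 1 innate lymphoid cells (ILC1), at 125, 78.5 and 37.2 CPM. Fosb, an immediate early gene, stood at 276, 153 and 100 CPM, a 7-day ratio of -1.38 (-1.67 to -1.07), and had a 7-day ratio of -2.33 in CD8 T cells and -1.03 in B cells.

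Clustering of the 764 members by their own transcripts gave 5 sub-clusters, whose leading genes are a description because they made the clusters. Sub-cluster 0 (169 cells) was led by Cma1, C3, Meg3, S1pr5, Zeb2, Itgam, Mcam, Dcn, Gzma and Ccl5, which include genes of late NK maturation beside Dcn, a fibroblast gene at 27.4 CPM against 0.873 CPM in the other members, with Gzma at 11139 CPM against 4968 CPM in the other members. Sub-cluster 1 (49 cells) was cycling, led by Pclaf, Mki67, Stmn1 and Top2a, with a median of 12671 UMIs. Sub-cluster 3 (66 cells) was led by Il7r, Tmem176b, Tmem176a and Cxcr6, 4 of the markers of ILC1, a related tissue lineage. Its other leading genes were Gm12840, Tcrg-C4, a T cell receptor gene, Gpr183, AC163354.1, Rora and S100a4. Il7r and Cxcr6 stood at 958 and 427 CPM in ILC2, so these markers do not single out ILC1. The sub-cluster is called ILC1-like as a label only, and its Gzma stood at 474 CPM against 6614 CPM in the other members. Sub-cluster 2 (245 cells) was led by class II genes, with Ifitm3, Cxcl9, Ifitm1, Ifitm2, Cst3 and Il1b. Sub-cluster 4 (235 cells) was led by immunoglobulin genes and Jchain, with Isyna1, Mettl1, Spin2c, Timm10, Srm and Mzb1. Class II and immunoglobulin genes are genes of other lineages, but several of the other leading genes are on no such list. Both sub-clusters stay unnamed. At a resolution of 1.0 class II genes led a sub-cluster of only 26 cells. Ifitm3, Cxcl9, Cst3, Ifitm2 and Il1b were among the leading genes of those 26 cells too.

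**Figure D4:**
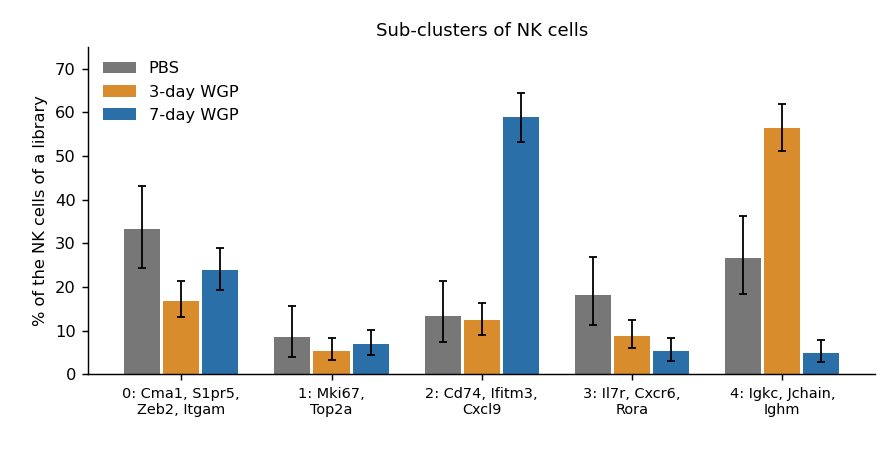
Share of the NK cells of a library (y axis, %) in each of 5 sub-clusters, labelled by some of the leading genes, in PBS, 3-day WGP and 7-day WGP. Bars are 1 library each with exact 95% binomial intervals; sub-cluster 2 held 58.9% of 7-day members and sub-cluster 4 held 56.5% of 3-day members.

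The makeup of the NK gate differed between libraries. The ILC1-like sub-cluster held 18.1% (11.3 to 26.8) of PBS members, 8.88% (6.07 to 12.4) of 3-day members and 5.30% (3.11 to 8.34) of 7-day members. As a share of all cells it was 0.362%, 0.615% and 0.407%, with intervals that overlapped, so that its smaller share of the gate went along with more members of the other kinds. Sub-cluster 0 held 33.3% (24.4 to 43.2), 16.9% (13.0 to 21.3) and 24% (19.4 to 29) of members, and 0.667%, 1.17% and 1.84% of all cells. The cycling sub-cluster held 8.57%, 5.33% and 6.85% of members. Without the ILC1-like members, the 7-day ratio of Il7r was -0.88 and that of Ccl3 was -0.32.

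Sub-clusters 2 and 4 were mostly of 1 library each, and such a cluster may be that library rather than a kind of cell. Sub-cluster 2 held 13.3%, 12.4% and 58.9% of members and sub-cluster 4 held 26.7%, 56.5% and 4.98%. When genes whose level could be over 20% free RNA in any library were left out of clustering, a choice made after the data were seen, a sub-cluster of 210 cells still held 5.71%, 8.28% and 54.8%. Among its leading genes were then Cxcl10, Bcl2l11, Cxcr4, Nfkbiz and Tnfaip3. A sub-cluster of 247 cells, still led by Igkc, Jchain and Ighm, held 32.4%, 56.5% and 6.85%. In the same clustering the ILC1-like sub-cluster held 18.1%, 10.1% and 4.98% of members.

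NK cells were set beside CD8 T cells, which share the killing programme, using sums of UMIs per library and cell type, with library as a block in edgeR's quasi-likelihood test. The CD8 T gate asked for Cd3 and Cd8 transcripts with no Cd4 and none of the 3 NK gate genes, and found 78, 145 and 131 cells. CD8 T cells that held an NK gate transcript were therefore left out, and the differences below hold for the remaining ones only. The libraries hold different treatments, so they replicate the cell types and not a treatment. Of 7584 genes tested, gate genes aside, 732 were higher in NK cells (9.65%) and 685 were lower (9.03%) at a Benjamini-Hochberg adjusted p of at most 0.05. DESeq2 called 329 and 343, and edgeR without the 3-day library 440 and 437.

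Gzma, Prf1 and Gzmb stood higher in NK cells than in CD8 T cells in every library. Gzma was at 158 CPM over all CD8 T cells and at 6137 CPM over all NK cells, a log2 difference of 5.01 with an adjusted p of 4.2e-11 (edgeR). Prf1 differed by 3.11 with an adjusted p of 8.1e-08 (edgeR), from 731 to 66.8 CPM, and Gzmb by 1.41 with an adjusted p of 0.0021. Of 15 genes of granules and death ligands tested, 8 were higher, 2 lower and 5 did not pass, with a median of 1.15 beside 0.01 for all genes. Eomes differed by 2.12 and Tbx21 by 1.83, Irf8 by 2.38, and the adaptor Tyrobp, which couples activating receptors to kinases, by 4.83, all past the threshold. Ifng and Ccl4 did not pass, with adjusted p values of 0.57 and 0.15 (edgeR), and their order differed between libraries. Ifng stood at 247, 217 and 231 CPM in NK cells and at 33.0, 26.2 and 637 CPM in CD8 T cells. Ccl4 stood at 1053, 1209 and 535 CPM in NK cells and at 118, 76.7 and 1166 CPM in CD8 T cells, so that for both genes NK cells were higher in PBS and 3-day WGP and lower in 7-day WGP.

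All 6 Ly49 receptors tested were higher in NK cells than in CD8 T cells. Of 14 activating receptors and adaptors 7 were higher and 3 lower, and of 8 inhibitory receptors 5 were higher and 0 lower. Klra8 held 1860 UMIs in NK cells and 0 in CD8 T cells, at least 359-fold higher when the latter is set at the limit of 3 counts over the group. Klra4 held 2773 and 3 UMIs, Klri2 1048 and 2, and Klrb1a 673 and 1. Among other genes with no UMI in CD8 T cells were Khdc1a, at least 80.2-fold higher, the mast cell protease Cma1, at least 69.2-fold, Dab2ip, at least 29.1-fold, Emid1, at least 27.2-fold, the growth factor Vegfc, at least 24.1-fold, and Phactr3, at least 21.2-fold.

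In the other direction, 6 of 7 T cell markers tested were lower in NK cells and none was higher. Cd5 and Cd6, which tune signals of the T cell receptor, held 219 and 195 UMIs in CD8 T cells and none in NK cells, at least 126-fold and 112-fold lower. Themis, needed for T cell selection in the thymus, held 363 and 3 UMIs, and Dapl1 727 and 1. Further genes of this kind were Tdrp, at least 72.0-fold lower, Actn2, Gm14085, Rapgef4, Gm43698 and Fam169b. Il7r differed by -2.49, Tcf7 by -1.65 and Ccr7, a homing receptor to lymph nodes, by -4.12, all past the threshold.

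**Figure D5:**
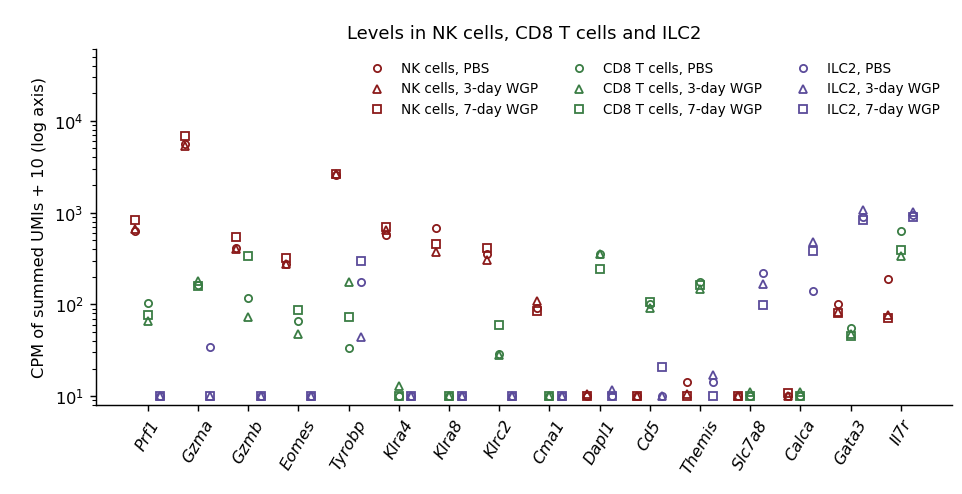
Level of selected genes (y axis, CPM of summed UMIs plus 10, log axis) in NK cells, CD8 T cells and type 2 innate lymphoid cells (ILC2), with 1 point per library and a shape per group. NK points for Prf1, Gzma and Eomes lie above those of both other types in all 3 libraries, and points at 10 are genes with no or nearly no UMI.

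ILC2, innate lymphocytes of tissues that make type 2 cytokines, served as the second reference, gated on Gata3, Il1rl1 and Il17rb without NK gate genes. They numbered 146, 156 and 10, so that the 7-day sum rested on few cells. Of 6599 genes tested, 479 were higher in NK cells (7.26%) and 565 lower (8.56%) at an adjusted p of at most 0.05. DESeq2 called 318 and 407. With edgeR, leaving out PBS gave 397 and 480, leaving out 3-day WGP 375 and 461, and leaving out 7-day WGP 573 and 744.

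Against ILC2, 10 of 13 genes of granules and death ligands tested were higher in NK cells and 2 were lower. Prf1 held 3099 UMIs in NK cells and 0 in ILC2, at least 335-fold higher, and Gzmb 1963 and 0, at least 212-fold. Eomes held 1219 and 0, at least 132-fold, and Ifng 964 and 0, at least 104-fold. Of the receptors, Klra4, Klra7, Klra8, Klra9, Klrc1 and Klrc2 held no UMI in ILC2 and were at least 137-fold to 300-fold higher, and Cd7, an early lymphoid surface protein, was at least 152-fold higher. Of 14 activating receptors and adaptors tested, 13 were higher and 0 lower. Xcl1 differed by 9.0 with an adjusted p of 2.7e-07 (edgeR), from 1220 to 2.18 CPM.

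Several genes were absent from NK cells and present in ILC2. Slc7a8, an amino acid transporter, held 251 UMIs in ILC2 and 0 in NK cells, at least 258-fold lower. Pparg, a lipid-sensing nuclear receptor, was at least 86.3-fold lower, Il9r, the interleukin-9 receptor, at least 79.1-fold, and Pcsk1 at least 105-fold. Calca, which encodes the neuropeptide CGRP, held 388 and 2 UMIs and Lif 175 and 3. Gata3, a gene of the ILC2 gate, is not counted. The immediate early list, which also moves with tissue digestion, held 15 lower genes of 18 tested, and Fos differed by -2.85 with an adjusted p of 1.1e-06 (edgeR). Csf2 differed by -5.29 and Il2ra by -4.40, both past the threshold. The ILC1 list, which ILC2 share in part, held 6 lower and 0 higher genes of 7 tested.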

How the data were processed

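The authors sorted live CD45+ pancreas cells and made 10x Genomics 3′ libraries, and per the submitters' processing notes used Cell Ranger 3.1.0 with mm10 and Seurat. The deposited files hold unnormalized UMI counts for every barcode. Cells had at least 1000 UMIs and at most 30% of UMIs in mitochondrial genes. Counts of members were summed per library and scaled to CPM, with exact Poisson intervals, and no test was made between treatments. Shares of cells with a UMI used cells thinned to 1000 UMIs, beside B cells gated on Cd79a, Cd79b and Ms4a1. Free RNA was read from barcodes with at most 100 UMIs. Cell types were compared with edgeR 4.0.16 in R 4.3.3 (filterByExpr, TMM, glmQLFTest), with DESeq2 1.42.0 as an alternative, and the step was tested on simulated data. Sub-clusters came from scanpy 1.11.5 (2000 variable genes, 20 components, 15 neighbours, Leiden at 0.5). Doublets were scored with Scrublet, whose automatic threshold marked 0, 1 and 1 cells. The highest scores, 0.8% per 1000 cells, were removed only as an alternative, taking 0, 8 and 3 NK cells.

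Genes named are, by a fixed rule, up to 10 in each direction per comparison by the counting bound nearest 0, or by log2 difference between cell types among genes past 2-fold in every library, with a fixed list of role genes. Serpinb9, Ifngr1, Il2rg, Irf1, Gbp7, Irf7, Rtp4, Tmem176b, the class I and class II genes as groups, Igkc, Tyrobp and Ccr7 stand outside it and were chosen after their values were seen. Members and gene lists were chosen with earlier results of these data known. Gene positions are from GENCODE vM21 (GRCm38) and promoters from RefSeq. Alternatives were other gates, barcode limits, pseudocounts, floors, scalings, thinning, removal of free RNA, doublets or sub-clusters, and Xist or Y cells alone. Some results are not reported here.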

Additional observations from a re-analysis of the deposited data

Results flagged for a closer look

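Ratios of a WGP library to PBS that ran in opposite directions in Xist and Y members, with counting intervals that excluded 0 in both, were found for 6 genes, and the difference between the ratios was not tested. The PBS members behind them were 45 Xist and 31 Y cells, and the 3-day Xist members only 12. Each value is a log2 ratio to PBS. Il7r stood at 2.07 in Xist and -2.88 in Y members at 3 days. Ifng stood at 1.32 and -1.59 at 3 days and at 0.60 and -1.41 at 7 days. Ccl4 stood at 0.87 and -0.85 at 3 days. Fos stood at 1.72 and -0.62 at 3 days and at 0.71 and -0.58 at 7 days. Cxcr6 stood at 2.35 and -1.43 at 7 days. The transcript Gm42418 stood at 0.12 and -0.20 at 3 days and at -0.10 and 1.06 at 7 days.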

How the results depend on the processing

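The log2 ratio of the NK share lay between 1.75 and 1.90 at 3 days and between 1.91 and 2.08 at 7 days under other gates, barcode limits and removal of high doublet scores. Within Xist cells the 3-day ratio was 0.18. Counts of genes at least 2-fold different moved more. At 3 days the lower genes, 4 as reported, numbered 2 with 50 CPM added, 2 with TMM factors, 2 with a gate minimum of 5 UMIs, 7 with a floor of 50 CPM, 69 with no floor, 26 in thinned cells, 27 in Xist and 25 in Y members, 7 without the cycling sub-cluster and 1 without the class II members. The 13 higher genes became 91 with no floor, 47 in Xist and 23 in Y members, and 5 without the class II members, an alternative chosen after the data were seen. At 7 days the 16 higher genes became 10 with 50 CPM added, 29 with a floor of 50 CPM, 127 with no floor, 32 in thinned cells, 26 in Xist and 34 in Y members. The 3 lower genes became 10 with a floor of 50 CPM, 63 with no floor, 12 in thinned cells, 1 in Xist and 30 in Y members, and 6 without the cycling sub-cluster. Fewer molecules stood behind the thinned and split values, and otherwise the cause was not tested. The median of the cell cycle list was 0.14 at 3 days in thinned cells, and at 7 days 1.08 in Xist and -0.41 in Y members.

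Some log2 ratios changed sign. In thinned cells these were, at 3 days, Mki67 at -0.44, Top2a at -0.66 and Klra7 at 0.092, and at 7 days Cst3 at -0.38. In Xist members they were, at 3 days, Hist1h1b at -1.55, Mki67 at -0.38, Top2a at -0.21, H2afx at -0.38, Gm42418 at 0.12, Il7r at 2.07, Xcl1 at -0.27, Ccl3 at 0.50 and Ighm at -0.71, and at 7 days the late maturation list at 0.23, Gm42418 at -0.10, Il7r at 0.54 and Fos at 0.71. In Y members they were, at 3 days, Cd69 at -0.24, Klra7 at 0.60 and Ccl4 at -0.85, and at 7 days the Ly49 list at 0.28. With a gate minimum of 5 UMIs the 3-day ratio of Ccl4 was -0.013, without the ILC1-like members that of Ccl3 was 0.30, and without the class II members that of H2-Aa was -0.25. Of all list medians recomputed, 482 stayed within their spread, 19 moved and 3 changed sign.

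Against CD8 T cells, DESeq2 called 329 genes higher and 343 lower, and leaving out 1 library gave 440 to 714 higher and 437 to 748 lower. Against ILC2, DESeq2 called 318 higher and 407 lower, and leaving out 1 library gave 375 to 573 higher and 461 to 744 lower. With no replicate block for the library, which is the pairing used here, edgeR called 627 and 588 genes against CD8 T cells and 512 and 600 against ILC2, and with no filter on low counts 1040 and 879, and 704 and 794. At a resolution of 1.0 the members formed 9 sub-clusters. No paired analysis was possible because the treatment groups have 1 library each. Depth limits PBS most, with 486301 UMIs in 105 members.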
